A study of Rattus norvegicus with 10 samples.

Results

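The genes described here are 7 markers of microglia, the resident macrophages of the brain. They were taken as all probe sets with Aif1, Csf1r, Cx3cr1, Itgam, Lyz2, Tspo or Bst1 as their single gene symbol in the platform annotation. All 7 genes were found, on 9 of the 8740 probe sets tested, against 4736 genes with a single symbol in the whole table. Aif1 had 3 probe sets and each of the others 1. Here Aif1, Csf1r, Cx3cr1 and Itgam were grouped as markers of microglial identity and Lyz2 as an abundant myeloid product. Tspo and Bst1 were grouped as markers that rise on activation. The grouping is not strict, since Aif1 and Itgam are also used as signs of activation. The markers were chosen with earlier results of these data known.

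The series asked how microglia cultured from neonatal rat brain respond to interferon gamma (IFN-gamma). Control dishes had a change of medium and nothing else (5 arrays from 5 independent cultures, numbered 1, 2, 3, 5 and 6). Treated dishes were given medium containing IFN-gamma at 100 U/ml for 16 hours (5 arrays from 3 cultures, with culture 1 measured on arrays 1a, 1b and 1c as a technical control). Both groups were primary cells, and the labels name no genotype. They were grown with 15% fetal calf serum at 1 brain per flask and plated on day 15, at 100000 cells per dish. The strain and sex of the rats are not given in the sources used here. Such cultures hold serum-exposed neonatal cells outside the brain, which limits them as a model of microglia in place.

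Some of the identity markers are receptors for signals of the surrounding tissue. Csf1r is the receptor tyrosine kinase for the growth factors CSF1 and IL-34, on which microglia depend for survival. Cx3cr1 is the receptor for fractalkine, a chemokine that neurons carry on their surface. Itgam is the alpha chain of complement receptor 3 (CD11b), and Aif1 (Iba1) is a calcium-binding protein that bundles actin and stains microglia in tissue sections. Activation is read from other proteins. Tspo is an outer mitochondrial membrane protein that binds cholesterol and is the target of the ligands used to image neuroinflammation, and Bst1 (CD157) is a membrane-anchored enzyme related to CD38 that uses NAD. Lyz2 encodes lysozyme, which cleaves bacterial cell walls and is secreted by macrophages.

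Levels are given as normalised log2(signal + 16), where 16 is a constant added to the signal, so a signal of 0 lies at 4 and a signal of 16 at 5. A log2 fold change is the IFN-gamma mean minus the control mean on that scale, which understates the change of dim genes. The culture was the replicate, with the arrays of IFN-gamma culture 1 averaged. Adjusted p-values come from limma over all 8740 probe sets, with 0.05 as the threshold. The median deposited signal of an array ran from 7.4 in control culture 3, the dimmest, to 23.7 in IFN-gamma array 1b, and the culture medians did not separate by group (exact permutation p = 0.536, two-sided). After IFN-gamma 81 probe sets (0.927%) passed as higher and 52 (0.595%) as lower, so that 60.9% of calls were upward. That share was 78.7% when array medians were subtracted and 97.4% when the arrays were left unscaled. In unscaled data the median log2 fold change of all probe sets was 0.10, against -0.02 here. Levels of different probe sets are not comparable with each other, because each binds with its own efficiency.

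Lyz2, Tspo and Bst1 rose with IFN-gamma, by 3.09-fold, 2.68-fold and 2.78-fold, and none of the 4 identity markers passed the threshold. Of the 7 genes 3 were higher and 0 lower, where 0.887% of all 4736 genes were higher and 0.697% lower. The median log2 fold change of the 7 markers was 0.79 and that of the 4 identity markers 0.29, beside -0.02 for all genes. At an unadjusted limma p under 0.05 the count among the identity markers was 1 of 4, Itgam, where 11.1% of all genes passed that limit. The 3 IFN-gamma cultures lay entirely above the 5 controls in 4 of the 9 probe sets (Lyz2, Tspo, Bst1 and Itgam), where 4.29% of all probe sets did so. RNA from whole dishes cannot tell more RNA per cell from more cells that express a gene.

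**Figure D1:**
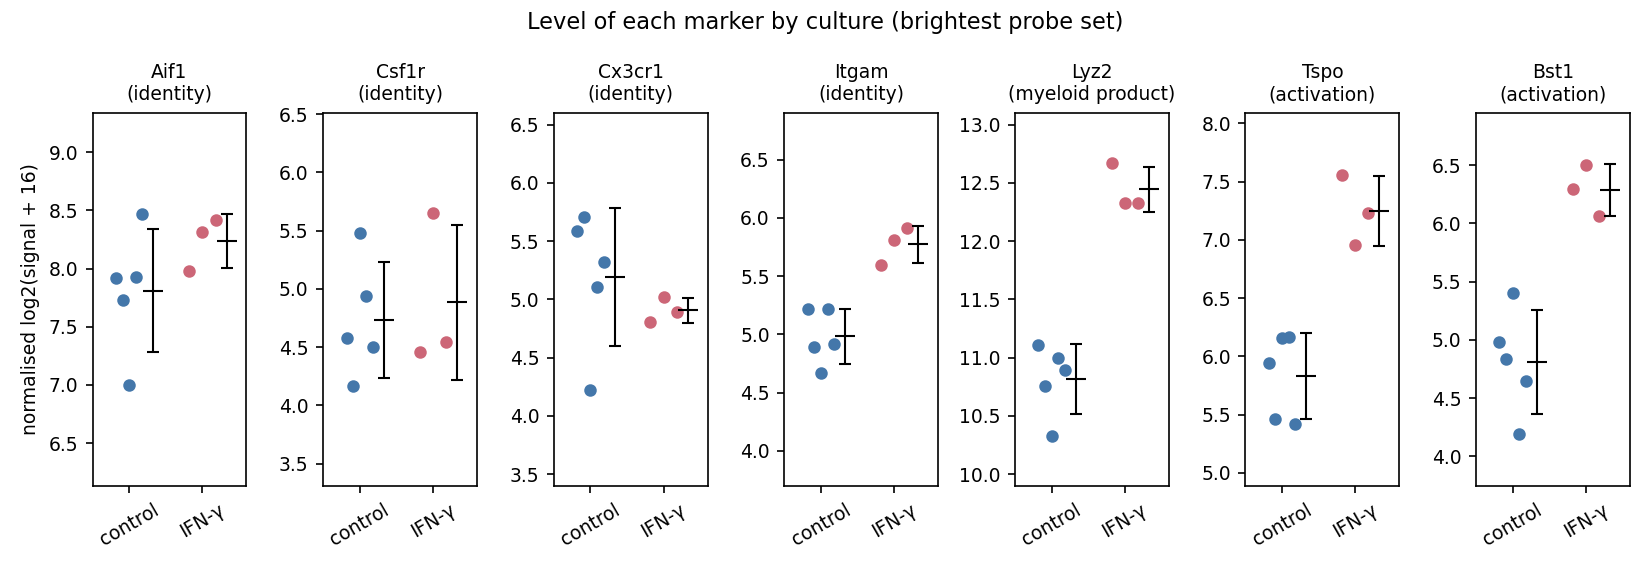
Normalised log2(signal + 16) of each of the 7 markers by culture (y axis, same span in every panel), with 5 control and 3 IFN-gamma cultures as points and the mean ± SD as bars. The groups are apart for Itgam, Lyz2, Tspo and Bst1 and overlap for Aif1, Csf1r and Cx3cr1.

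Tspo was at 5.94, 5.46, 6.16, 6.17 and 5.42 in control cultures 1, 2, 3, 5 and 6. In IFN-gamma cultures 1, 2 and 3 it was at 7.56, 6.96 and 7.23. The lowest IFN-gamma culture thus lay 0.79 above the highest control. The level rose from 5.83 ± 0.37 (SD, n = 5) to 7.25 ± 0.301 (SD, n = 3), a log2 fold change of 1.42 ± 0.245 (SE) or 2.68-fold (95% interval 1.82 to 3.92; limma adjusted p = 0.0226). The groups were also apart in the deposited signals before any scaling, which ran from 20.3 to 64 on the control arrays and from 109.6 to 331.6 on the IFN-gamma arrays. The 3 technical arrays of culture 1 had deposited Tspo signals of 133.9, 331.6 and 109.6, and after normalisation they lay within 0.25 of each other. An exact two-sided permutation test of the culture values gave p = 0.0179, the smallest that 3 of 8 cultures allow. With a constant of 64 the log2 fold change was 0.94 (limma adjusted p = 0.0142). The call of Tspo was lost in 8 of 22 other settings, in all of which the gene stayed higher. Its limma adjusted p was 0.0513 without control culture 2 and 0.0503 without control culture 6. Without IFN-gamma culture 1, 2 or 3 it was 0.124, 0.0567 or 0.113. With no scaling it was 0.0677, with a constant of 4 in place of 16 it was 0.0641 (log2 fold change 1.66), and with the replicate number as a block, over cultures 1 to 3, it was 0.156.

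Bst1 was near the floor in the controls, at 4.98, 4.84, 5.4, 4.19 and 4.65 in cultures 1, 2, 3, 5 and 6. With IFN-gamma it was at 6.3, 6.5 and 6.06 in cultures 1, 2 and 3. Only 1 of 5 control arrays had a deposited signal above 16, against 5 of 5 IFN-gamma arrays, and the deposited ranges of 2.7 to 20.2 and 39.6 to 156.3 did not overlap. The mean rose from 4.81 ± 0.442 (SD, n = 5) to 6.29 ± 0.224 (SD, n = 3), a log2 fold change of 1.48 ± 0.263 (SE) or 2.78-fold (95% interval 1.85 to 4.19; limma adjusted p = 0.0258). The exact two-sided permutation test gave p = 0.0179. With a constant of 4 the log2 fold change was 2.12 (adjusted p = 0.0745), and with a constant of 64 it was 0.74 (adjusted p = 0.014). Bst1 no longer passed in 7 of 22 other settings. Its limma adjusted p was 0.0619 without control culture 2, 0.0729 without control culture 6, and 0.127, 0.163 or 0.0871 without IFN-gamma culture 1, 2 or 3. With the replicate number as a block it was 0.315.

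Lyz2 was bright in every culture. Its levels were 11.11, 10.76, 10.33, 11.00 and 10.89 in control cultures 1, 2, 3, 5 and 6. In IFN-gamma cultures 1, 2 and 3 they were 12.67, 12.33 and 12.33. The lowest IFN-gamma culture was 1.22 above the highest control, and the technical arrays of culture 1 lay within 0.20 of each other. Lyz2 rose from 10.8 ± 0.303 (SD, n = 5) to 12.4 ± 0.199 (SD, n = 3), a log2 fold change of 1.63 ± 0.21 (SE) or 3.09-fold (95% interval 2.23 to 4.29; limma adjusted p = 0.00386). This was the smallest adjusted p of the 7 genes. The call was kept in 20 of 22 other settings, those leaving out each culture among them. It was lost with no scaling (log2 fold change 2.41, adjusted p = 0.431), where control signals ran from 316.6 to 4813 and IFN-gamma signals from 4545.8 to 19171, and with the replicate number as a block (adjusted p = 0.0862). The RefSeq gene table lists another lysozyme gene of the rat, Lyc2, with Lyz2 among its older names, and how much of the signal comes from each was not tested.

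Itgam moved less. It was at 5.22, 4.89, 4.67, 5.22 and 4.92 in control cultures 1, 2, 3, 5 and 6 and at 5.60, 5.81 and 5.91 in IFN-gamma cultures 1, 2 and 3. All 3 treated cultures were above every control, by at least 0.37. The mean went from 4.98 ± 0.239 (SD, n = 5) to 5.77 ± 0.158 (SD, n = 3), a log2 fold change of 0.79 ± 0.185 (SE) or 1.73-fold (95% interval 1.29 to 2.3), which did not pass over the whole table (limma adjusted p = 0.0947). The exact two-sided permutation test of this single gene gave p = 0.0179, the smallest possible here. In 1 of 22 other settings, that with all 10 arrays and the culture as a random block, Itgam passed (adjusted p = 0.0492), and its adjusted p ran up to 0.465 in the others. Its deposited signals were low, from 4.6 to 27.3 on the control arrays and from 20.6 to 63 on the IFN-gamma arrays.

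Aif1 was read by 3 probe sets. On the brightest (U10894_s_at) it was at 7.92, 7.73, 7.00, 7.93 and 8.47 in control cultures 1, 2, 3, 5 and 6 and at 7.98, 8.31 and 8.42 in IFN-gamma cultures 1, 2 and 3. The groups overlapped, with control culture 3 lowest and control culture 6 highest of all. The log2 fold change was 0.42 ± 0.298 (SE; 95% interval -0.25 to 1.1; limma adjusted p = 0.742), so a rise of up to 2.14-fold lies within the interval. A second probe set (U17919_s_at) read 7.82 ± 0.476 (SD, n = 5) and 8.06 ± 0.26 (SD, n = 3; limma adjusted p = 0.879). It differed from the brightest by 0.18 on average over the 8 cultures, and by 0.43 at most. The third (U33471_at) behaved otherwise. It lay between 4.69 and 5.18 on 8 of the 10 arrays, at 6.48 in control culture 5 and at 9.64 on IFN-gamma array 1c, while the other arrays of the same culture, 1a and 1b, read 4.80 and 4.69. That spread of 4.95 between technical arrays compares with a median of 0.59 over all probe sets. The mean difference of 0.00 for this probe set moved with both of these arrays. It was 0.30 without control culture 5 (limma adjusted p = 0.905) and 1.07 with array 1c alone for culture 1 (0.835), and it was -0.51 with array 1a alone and -0.58 with array 1b alone for culture 1 (limma adjusted p = 0.694 and 0.613).

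**Figure D2:**
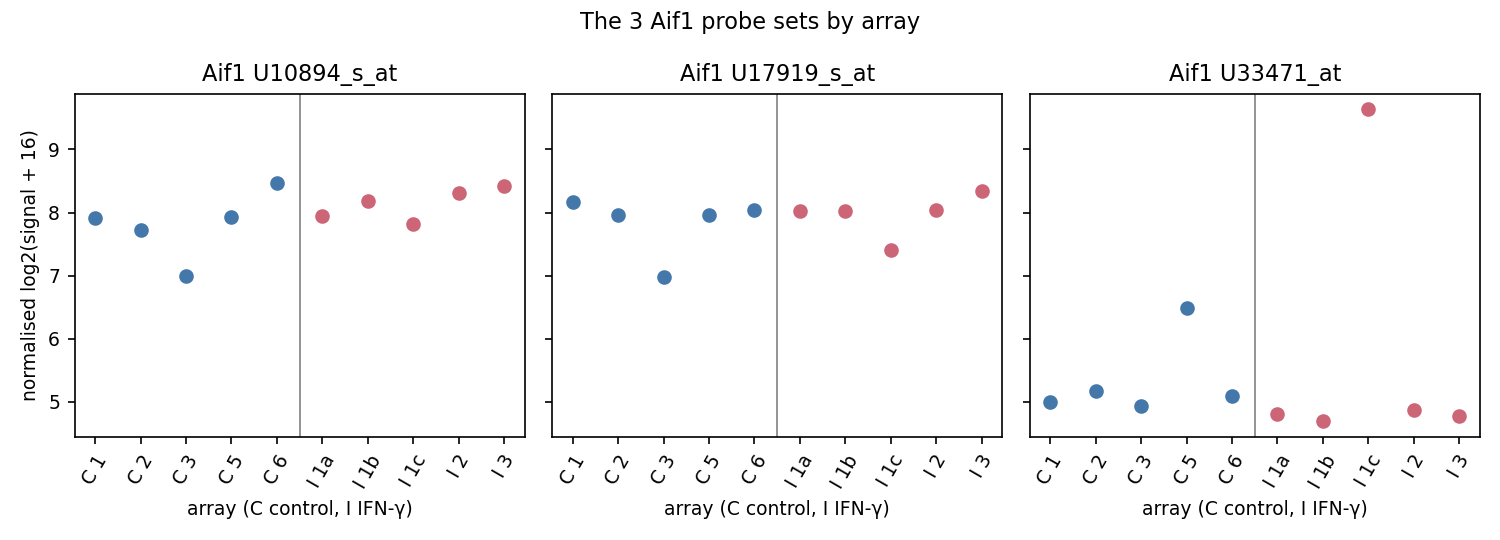
Normalised log2(signal + 16) of the 3 Aif1 probe sets (y axis) on each of the 10 arrays (x axis; C is control, I is IFN-gamma, and 1a, 1b and 1c are technical arrays of IFN-gamma culture 1). Probe set U33471_at reads 9.64 on array 1c and 4.80 and 4.69 on arrays 1a and 1b, a gap that the other probe sets do not show.

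Cx3cr1 was the only marker with a lower mean after IFN-gamma. It was at 5.59, 5.71, 4.22, 5.11 and 5.32 in control cultures 1, 2, 3, 5 and 6 and at 4.81, 5.02 and 4.89 in IFN-gamma cultures 1, 2 and 3. In 4 of the 5 controls it lay above every IFN-gamma culture, and control culture 3, where the deposited signal was 1.6, was the lowest of all. The log2 fold change was -0.29 ± 0.316 (SE; 95% interval -1 to 0.43; limma adjusted p = 0.87). Without control culture 3 the log2 fold change was -0.55 (adjusted p = 0.325).

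Csf1r was too dim for a change to be followed. Its levels were 4.58, 4.17, 5.48, 4.94 and 4.5 in control cultures 1, 2, 3, 5 and 6 and 4.46, 5.65 and 4.54 in IFN-gamma cultures 1, 2 and 3. A deposited signal above 16 was seen on 1 of 5 control and 1 of 5 IFN-gamma arrays. The log2 fold change of 0.15 ± 0.355 (SE; 95% interval -0.65 to 0.95; limma adjusted p = 0.959) turned to -0.23 without IFN-gamma culture 2. A low reading of this probe set does not show that the cells lacked the receptor.

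**Figure D3:**
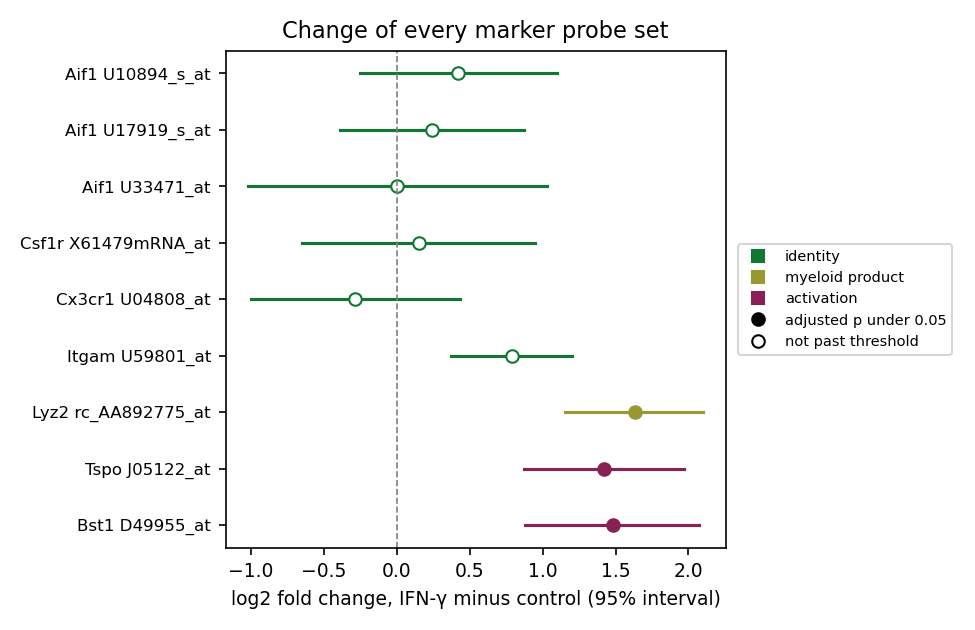
Log2 fold change with its 95% interval (x axis) for each of the 9 probe sets (rows), coloured by role, with filled points for adjusted p under 0.05. Lyz2, Tspo and Bst1 are filled at 1.63, 1.42 and 1.48, and the intervals of Aif1, Csf1r and Cx3cr1 include 0.

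Promoter sequences from RefSeq (assembly GRCr8) were matched for 5 of the 7 genes, all but Aif1 and Tspo. Those of Lyz2, Bst1 and Itgam are shown because all 3 IFN-gamma cultures lay above the controls for these genes. Each runs from 250 bases before to 50 bases after the annotated start, 5′ to 3′ on the strand of the gene. Capitals mark matches, on either strand, to the core motif GAGGAA of the myeloid factor PU.1 or to a tandem repeat of GAAA with any 2 bases between, a form bound by interferon regulatory factors.
Lyz2 (chr7:54797962-54798261, minus strand): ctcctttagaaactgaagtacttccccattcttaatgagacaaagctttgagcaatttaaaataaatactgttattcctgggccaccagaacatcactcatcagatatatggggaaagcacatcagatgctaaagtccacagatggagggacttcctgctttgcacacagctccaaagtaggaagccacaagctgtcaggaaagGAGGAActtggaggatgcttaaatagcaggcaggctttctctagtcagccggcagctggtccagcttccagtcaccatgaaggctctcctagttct
Bst1 (chr14:71482598-71482897, minus strand): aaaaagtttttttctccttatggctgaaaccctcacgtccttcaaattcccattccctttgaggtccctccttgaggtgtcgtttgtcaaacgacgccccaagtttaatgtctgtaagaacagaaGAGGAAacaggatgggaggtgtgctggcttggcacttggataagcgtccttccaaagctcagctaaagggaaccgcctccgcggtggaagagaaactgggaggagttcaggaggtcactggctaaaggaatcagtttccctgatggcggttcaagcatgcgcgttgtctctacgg
Itgam (chr1:192089342-192089641, plus strand): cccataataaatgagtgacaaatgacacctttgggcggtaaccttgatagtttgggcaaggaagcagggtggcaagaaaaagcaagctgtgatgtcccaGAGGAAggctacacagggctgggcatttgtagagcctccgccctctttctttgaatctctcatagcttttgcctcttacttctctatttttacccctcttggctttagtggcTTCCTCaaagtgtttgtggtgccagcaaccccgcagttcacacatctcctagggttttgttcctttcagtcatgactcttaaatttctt
The GAGGAA core was found 46 bases before the start of Lyz2, 125 before that of Bst1, and at 151 and 39 before that of Itgam. It also occurred at 229 and 95 before the start of Csf1r and was not in the window of Cx3cr1. It was found in 27.6% of all 33469 promoters. No window of the 5 held the tandem repeat, which 3.92% of all promoters did. With the tandem repeat absent, no matches of different motifs could overlap in the printed sequences. A match describes letters, not binding.

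Ratios between markers within a culture do not depend on how whole arrays are scaled, so they were used to set activation against identity markers. In each of the 8 ratios of Tspo or Bst1 to an identity marker, taken on deposited signals, the IFN-gamma mean was higher than the control mean. The groups overlapped in all 8, however, and no ratio was tested. The log2 ratio of Tspo to Aif1 was -2.80, -2.56, -0.76, -1.81 and -3.71 in control cultures 1, 2, 3, 5 and 6 and -0.49, -1.64 and -1.39 in IFN-gamma cultures 1, 2 and 3, a mean rise of 1.16. Control culture 3, the dimmest array, stood within the IFN-gamma range. For Tspo to Cx3cr1 that culture was the single control within the IFN-gamma range, at 3.93 against -0.34 to 1.56 in the other controls and 2.89 to 4.11 with IFN-gamma, where Cx3cr1 had a signal of 1.6. For Bst1 to Cx3cr1 that culture lay above every IFN-gamma culture, at 3, with the other controls from -3.01 to -1.04 and the IFN-gamma cultures from 2.02 to 2.68.

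For Lyz2 the groups were apart in 2 of the 4 ratios of deposited signals to identity markers. With 16 added to the signals Lyz2, Tspo and Bst1 each had 2 of 4 apart. Unlike the plain ratios, these do depend on the brightness of an array, since the constant weighs more on a dim array. On deposited signals the log2 ratio of Lyz2 to Aif1 was 3.54, 3.19, 2.93, 2.97 and 2.52 in control cultures 1, 2, 3, 5 and 6 and 4.97, 4.41 and 3.75 with IFN-gamma, with no overlap and a mean rise of 1.34 (2.54-fold). Its ratio to Cx3cr1 also rose without overlap, from 6.52 ± 0.811 (SD, n = 5) to 9.08 ± 0.432 (SD, n = 3). These ratios show unequal change of the genes in a ratio, not which of them changed. Lyz2 to Csf1r and Lyz2 to Itgam overlapped between groups.

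**Figure D4:**
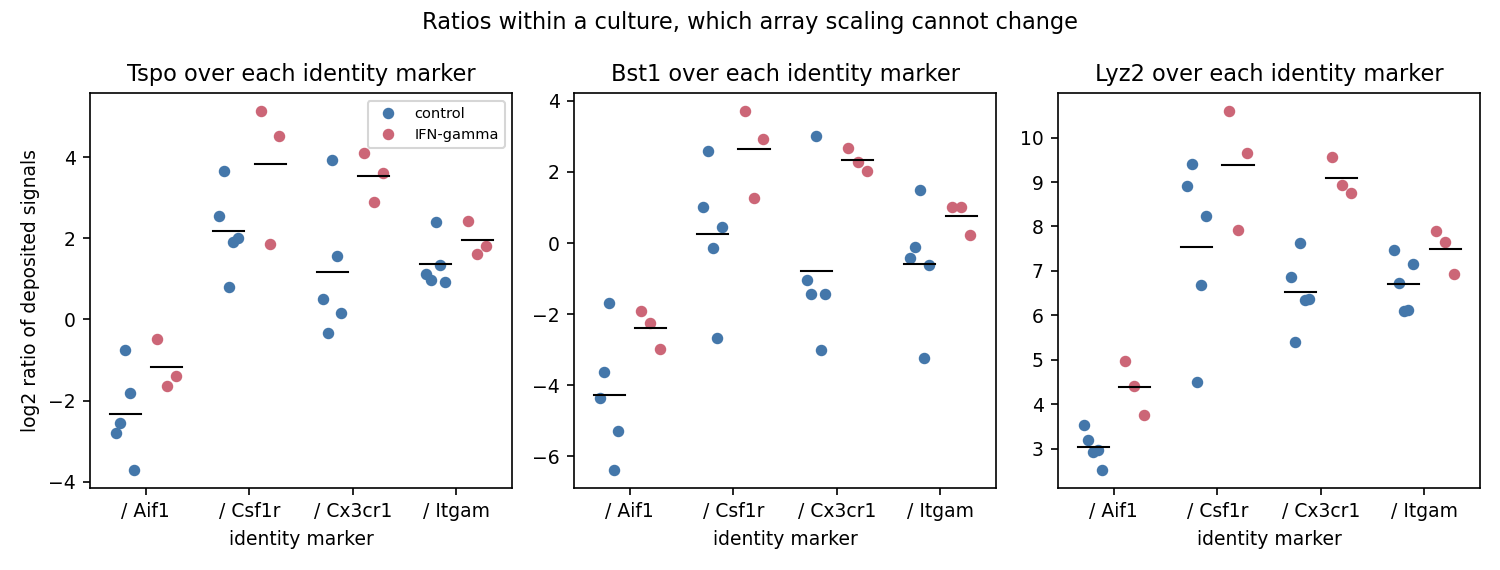
Log2 ratio of the deposited signals of Tspo, Bst1 and Lyz2 (panels) to each identity marker (x axis), with 1 point per culture and bars at the group means. Every IFN-gamma mean is above the control mean, and the groups are fully apart for Lyz2 to Aif1 and Lyz2 to Cx3cr1.

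Around the members 5 lists were drawn up. They covered the CSF1 receptor axis, the fractalkine axis, beta2 integrins with their ligands, and TSPO partners with mitochondrial cholesterol import. Another held ectoenzymes and enzymes of NAD use or synthesis. In these lists 50 genes were measured. By their brightest probe sets 0 passed in limma in either direction, a count that the low share of calls among all genes (0.887% higher and 0.697% lower) does not set apart. At an unadjusted p under 0.05 there were 11 of 50, beside 11.1% of all genes, and the median log2 fold change was 0.04, over genes that went both ways. Csf1, the ligand of Csf1r, had a log2 fold change of 1.21 from 5.27 ± 0.609 (SD, n = 5) to 6.48 ± 0.271 (SD, n = 3; limma adjusted p = 0.162). Cebpb, a myeloid transcription factor, had 1.09 (limma adjusted p = 0.0507). The adaptor gene Grb2, the kinase gene Akt1 and the phosphatase gene Ptpn6, which act downstream of receptors such as Csf1r, had -0.37, 0.01 and 0.98. Cx3cl1, the fractalkine ligand of Cx3cr1, had -0.18, and Gnai2 and Gnb1, subunits of the G proteins it signals through, had 0.07 and 0.59.

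Among partners of Itgam, Icam1, a ligand of beta2 integrins, had a log2 fold change of 1.35 on its brightest probe set, which did not pass (limma adjusted p = 0.083), and rose by 1.13 on another (limma adjusted p = 0.0461). In 13 of 21 other settings this probe set missed the threshold, among them those without control culture 1, 5 or 6 and without any 1 of the IFN-gamma cultures (limma adjusted p from 0.0785 to 0.243). C3, whose fragment binds complement receptor 3, had 0.67 (limma adjusted p = 0.332), and Itgb1 and Icam2 had -0.37 and -0.18. Of the 11 measured genes of the Tspo list none passed in limma (3 at an unadjusted p under 0.05, beside 11.1% of all genes). The adenine nucleotide carriers Slc25a5 and Slc25a4 had 0.84 and -0.19, the regulatory subunit gene of protein kinase A Prkar1a had -0.01, the hexokinase gene Hk2 had 0.51, and Dbi, which encodes an endogenous TSPO ligand, had 0.21. In the list of ectoenzymes and NAD enzymes around Bst1, Parp1 had 0.83 (limma adjusted p = 0.266), Sirt2 -0.43, Nnt -0.14 and the phosphatase gene Alpl -0.17.

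Other markers of microglia and macrophages moved both ways. Of 9 measured of 26 listed, 2 rose and 1 fell, where 0.887% of all genes were higher and 0.697% lower. At an unadjusted limma p under 0.05 there were 5 of 9, beside 11.1% of all genes, and the median log2 fold change was 0.26. C1qb and C1qc, chains of the complement starter C1q, rose 2.17-fold and 2.48-fold (limma adjusted p = 0.0226 and 0.0368). Both C1q chains stayed higher in the other settings, but C1qb missed the threshold in 8 of 21 and C1qc in 10 of 20. With no scaling, with a constant of 4 or with the replicate number as a block neither passed. C1qb also missed it without control culture 2 or 6 or IFN-gamma culture 2 or 3 (limma adjusted p from 0.0576 to 0.142), and C1qc without any culture but control culture 3 (0.0532 to 0.206). Cd4, which rat macrophages carry as well as T cells, fell 2.03-fold from 7.56 ± 0.118 (SD, n = 5) to 6.53 ± 0.0507 (SD, n = 3; limma adjusted p = 0.00799). It missed the threshold without IFN-gamma culture 3 (limma adjusted p = 0.0606), with a constant of 4 (0.105) and with the replicate number as a block (0.286). Its log2 fold change of -1.02 was -0.56 with no scaling (0.865) and -0.68 with array medians subtracted (0.462). Cd53 and the cysteine protease gene Ctss had 0.62 and 0.68 and did not pass (limma adjusted p = 0.339 and 0.0818). Cd14 and the purinergic receptor gene P2ry12, a marker of resting microglia, had -0.34 and -0.65 (limma adjusted p = 0.616 and 0.655). The list of activation genes had 24 measured members, 16 of them at an unadjusted limma p under 0.05, beside the same 11.1% of all genes. Of the 24, 9 rose and 3 fell past the threshold, with a median of 0.15. Those that rose were Cd40, Cd74, RT1-Da, RT1-Ba, RT1-Bb, RT1-Db1, Cxcl10, Irf1 and Gbp2, and those that fell were Il1a, Spp1 and Ccl2. With the replicate number as a block Cd40, RT1-Db1 and Cxcl10 missed the threshold (limma adjusted p = 0.174, 0.1 and 0.119). The other rises passed in every setting in which they were measured. Of the 3 that fell, the calls of Il1a and Ccl2 were lost in 16 and 15 of 20 other settings and that of Spp1 in 4 of 21. Il1a missed the threshold without any 1 culture (limma adjusted p from 0.0573 to 0.217), Ccl2 without any 1 but control culture 3 (0.0707 to 0.25), and Spp1 without IFN-gamma culture 2 or 3 (0.0537 and 0.0674). In the controls Cd40, Cd74, Gbp2 and RT1-Db1 were near the floor, at 4.27, 4.51, 4.48 and 4.98. The size of their change thus depends on the added constant. The log2 fold change of Cd40 was 1.49 with 16, 2.52 with 4 and 0.62 with 64. In the same order that of Cd74 was 5.59, 6.75 and 4.02. That of Gbp2 was 3.13, 4.21 and 1.82, and that of RT1-Db1 was 3.19, 3.94 and 2.07. The other genes that rose also had a smaller log2 fold change with 64 than with 16.

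**Figure D5:**
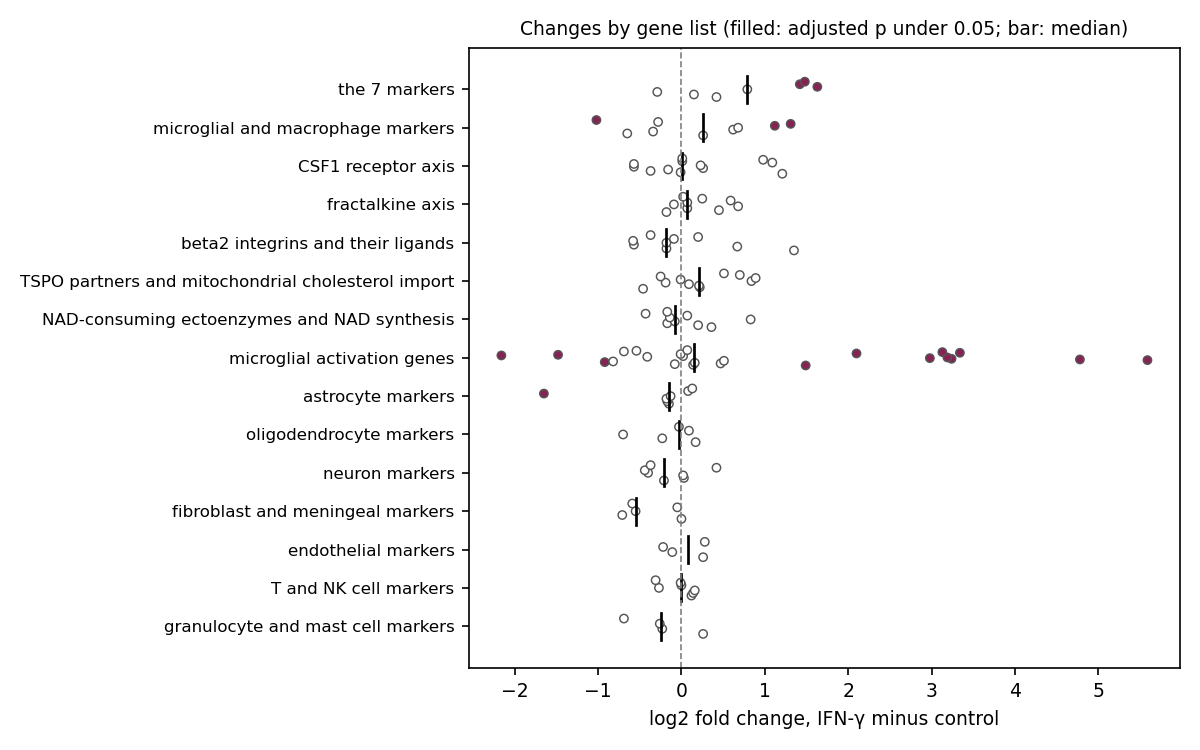
Log2 fold change (x axis) of each measured gene by its brightest probe set, for the 7 markers and for each list (rows), with filled points for adjusted p under 0.05 and a bar at the median. The 7 markers have a median of 0.79, and the medians of the 5 partner lists lie between -0.18 and 0.21.

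Genes with patterns most like each marker were found by the root-mean-square difference of centred levels over the 8 cultures, among genes with a mean level of at least 6. For Lyz2 they were the proteasome activator gene Psme2 (0.208), the lysyl-tRNA synthetase gene Kars1 (0.215) and B2m (0.217), of 959 candidates. For Bst1 they were C1qc (0.211), Creg1 (0.305) and the Src-family kinase gene Lyn (0.329), and for Tspo they were Serping1 (0.285), Creg1 (0.303) and C1qc (0.312). Itgam was closest to Cd53 (0.141), Rab10 (0.164) and Psmb4 (0.169). Aif1 was closest to Nme2 (0.154), P2ry6 (0.164) and Rab8b (0.167), Cx3cr1 to Nek7 (0.147), Lamp2 (0.166) and Rpl22 (0.177), and Csf1r to Sirt7 (0.244), Khk (0.29) and Mcrs1 (0.29). The centred levels include the difference between the groups, so the nearest genes share a marker's change, or lack of change, largely by construction. Among those nearest to Aif1, Cx3cr1 or Csf1r the smallest limma adjusted p was 0.747, which is therefore no separate result. Csf1r had a deposited signal above 16 on only 1 of 5 control and 1 of 5 IFN-gamma arrays. Its likeness to other genes thus rests on values near the floor.

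The cultures were checked for other cells with 7 marker lists, of which 39 genes were measured, 0 rose and 1 fell in limma (6 of 39 at an unadjusted p under 0.05, beside 11.1% of all genes). The gene that fell was Glul, glutamine synthetase, an astrocyte enzyme that macrophages also express, from 9.07 ± 0.292 (SD, n = 5) to 7.42 ± 0.143 (SD, n = 3; limma adjusted p = 0.0029), a log2 fold change of -1.65. The call was lost with no scaling (-0.99, adjusted p = 0.729), with array medians subtracted (-1.12, 0.148) and with the replicate number as a block (-1.65, 0.098). The summed normalised signal of the 7 measured astrocyte markers was 557 to 900 in the controls and 245 to 307 with IFN-gamma. Without Glul the other 6 summed to 102 to 175 and 103 to 132, so the groups overlapped. The astrocyte genes Aqp4, S100b and Gja1 lay below 5 in both groups. Slc1a3, Slc1a2 and Aldoc lay above 5, at 6.17, 5.39 and 5.1 in the controls and 6.04, 5.22 and 5.17 with IFN-gamma. The 5 fibroblast and meningeal markers summed to 158 to 225 in the controls and 118 to 142 with IFN-gamma, without overlap. Their median log2 fold change was -0.55, and 3 of 5 were at an unadjusted limma p under 0.05. Col1a2, Col3a1 and Lum had -0.71, -0.55 and -0.59 (limma adjusted p = 0.339, 0.423 and 0.339), and Dcn had -0.05. For Col1a1, 1 of the 4 probe sets fell while the other 3, the brightest among them, were at 0.00, -0.16 and -0.08. The one that fell did not hold in 9 of 20 other settings (log2 fold change -1.20, limma adjusted p = 0.0237; 0.0615 and 0.0643 without control culture 2 or 6, and 0.114 and 0.132 without IFN-gamma culture 1 or 3). The part of other cells in the marker results was not tested. Summed oligodendrocyte, neuron, endothelial and granulocyte markers overlapped between the groups. T and NK cell markers were near the floor in both groups (summed 48.6 to 108 in the controls and 55.1 to 79.1 with IFN-gamma).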

How the data were processed

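The deposited values are intensities on a linear scale, 1 for each probe set on each single-colour Affymetrix rat array. MAS5 and GCRMA are named in the submitters' processing notes, and neither a version nor the role of either is given in the sources used here. After 59 array controls were left out, log2(signal + 16) was quantile normalised over the 10 arrays and the technical arrays of IFN-gamma culture 1 were averaged. The 5 control and 3 IFN-gamma cultures were compared in limma 3.58.1 (R 4.3.3) by lmFit and eBayes with a single group term, and p-values were adjusted by Benjamini-Hochberg over 8740 probe sets. The fit was tested on simulated data. Precision is limited by the number of cultures. A gene is represented by its probe set with the highest mean. Symbols come from the platform annotation, and 9 of 9 member probe sets matched RefSeq symbols.

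The markers, the gene lists, the tests and the alternatives were chosen with earlier results of these data known. Named were all members, every list gene past the threshold, otherwise up to 4 of a list with the highest mean, and the 3 genes nearest each member. Csf1, Dbi, P2ry12, Aqp4, S100b, Gja1, Lum and the further probe sets of Icam1 and Col1a1 were chosen after their values were seen. The other-cell lists are named only where a value is given. The same culture numbers occur in both groups, but the deviations of same-numbered cultures did not correlate (-0.026, 0.004 and -0.015), so no block was used. Alternatives covered scaling, the added constant, filters, technical arrays, the variance model and leaving out each culture.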

Additional observations from a re-analysis of the deposited data

Results flagged for a closer look

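A control culture stood apart from the other 4 by Dixon's criterion in 3 of 32 results tested, where chance flags about 1 in 20. The second Aif1 probe set (U17919_s_at) had a gap of 0.826 of the control range, with culture 3 at 6.98 and the others from 7.96 to 8.16. The third Aif1 probe set (U33471_at) had 0.836, with culture 5 at 6.48 and the others from 4.93 to 5.18. The log2 ratio of Tspo to Itgam had 0.718, with culture 3 at 2.41 and the others from 0.93 to 1.35. Culture 3 was also the dimmest array, with a median signal of 7.4, and its part in these values was not tested.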

How the results depend on the processing

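Lyz2, Tspo, Bst1, Itgam and the brightest Aif1 probe set stayed higher, and Cx3cr1 lower, in every alternative in which they were measured. With no scaling Lyz2 (log2 fold change 2.41) and Tspo (1.82) did not pass, with a constant of 4 Tspo (1.66) and Bst1 (2.12) did not, and with the replicate number as a block Lyz2 (1.71), Tspo (1.39) and Bst1 (1.21) did not. That block kept cultures 1 to 3 only and so fitted 6 cultures. Leaving out each culture gave 1.26 to 1.57 for Tspo, 1.32 to 1.69 for Bst1 and -0.23 to 0.36 for Csf1r. Itgam passed with all 10 arrays and the culture as a random block (0.74). Aif1 probe set U33471_at, at 0.00, was at -0.07 with array medians, -0.09 with the trimmed mean, -0.16 with a constant of 4, -0.51 and -0.58 with array 1a or 1b alone, 1.07 with array 1c alone, 0.27 with the random block, 0.13 with a constant of 64, and -0.51 to 0.30 without each culture. Over all probe sets the counts higher and lower, 81 and 52, were 38 and 1 with no scaling, 100 and 27 with array medians, 53 and 32 with a constant of 4, 39 and 19 without probe sets of reduced specificity, 122 and 70 with the random block and 17 and 5 with the replicate block. They ran from 48 to 105 and from 21 to 48 without each culture. Of the 82 genes in the 5 partner lists, the list of microglial and macrophage markers and that of activation genes, 11 were higher and 4 lower. Of all genes 0.887% were higher and 0.697% lower. The higher count of the 82 genes was 4 without probe sets of reduced specificity and 6 with the replicate block. The lower count was 0 with no scaling and with the replicate block, 1 with array medians and with a constant of 4, 2 without probe sets of reduced specificity and with array 1b alone, and 0 to 3 without each culture. In these counts fewer probe sets or cultures entered some fits, and for the rest the cause was not tested. Of the ratios, each of the 8 moved by less than the control SD with 16 added or a culture left out, although with 16 added 4 of them no longer overlapped. Aif1 had only U33471_at left without probe sets of reduced specificity, and Csf1r was removed by the filter on dim probe sets. Signals near the floor limit Csf1r, Cx3cr1, Itgam and the control level of Bst1.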
